A study of Mus musculus with 6 samples.

Results

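The genes described here belong to the ATF4 response, a stress programme of amino acid supply, and to the aminoacyl-tRNA synthetases, the enzymes that charge tRNAs with their amino acids. They were chosen by symbol. For the ATF4 response, 16 symbols were looked up and 13 had values. Atf3, Chac1 and Vldlr were not analysed here. Symbols made of a short amino acid code followed by ars or ars2 were added. This gave 17 genes for cytosolic synthetases and 16 genes, with names ending in ars2, for mitochondrial synthetases. The members therefore numbered 46 of the 14238 genes with values, and all 46 passed the filter on low counts.

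RNA was sequenced from Ba/F3, an established murine pro-B line that depends on interleukin-3, to find which pathways the ETV6::FRK fusion affects. The 3 induced libraries came from cells given 500 ng/ml doxycycline, which switches on a retrovirally delivered ETV6::FRK fusion gene, and their titles carry the marks DOXp and IL3n. The 3 control libraries came from the same transduced cells without doxycycline, and their titles carry DOXn and IL3p. RNA was taken at 48 h in both groups. Each group has 1 library whose title begins with EF1, 1 with EF2 and 1 with EFPC, and these were compared as pairs. The meaning of EFPC and of the IL3 marks, and whether the transduced cells are 1 clone, is not stated in the labels. Doxycycline, the fusion and the IL3 mark differ together between the groups and cannot be told apart. The labels describe triplicate cultures, and the spread between those cultures, which may be technical, lies behind the p-values of most fits. Fits with the replicate number as a block use the spread of the differences within pairs instead. A later test sets the EFPC pair apart from the EF1 and EF2 libraries without pairing those, and all other fits ignore the pairs.

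ATF4 is a basic leucine zipper transcription factor. Its messenger RNA is translated preferentially when the initiation factor eIF2 alpha is phosphorylated, for example on amino acid shortage or stress of the endoplasmic reticulum, and its transcript also varies. ATF4 binds C/EBP-ATF response elements and is known to switch on genes for amino acid import, for the making of serine and asparagine, and for many cytosolic aminoacyl-tRNA synthetases. In proliferating blood cells the same genes serve protein synthesis during growth. The mitochondrial synthetases are encoded by separate nuclear genes, except that Gars and Kars, counted here with the cytosolic genes, also give rise to the mitochondrial enzymes.

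To show the element on the DNA of the members, 300-base promoter windows of RefSeq (GRCm38.p6, 250 bases before to 50 after a gene's start) were searched on both strands for the letters TGATGNAA. Windows were found for 37 of the 46 members. The letters occurred in 8 of these: Trib3, Nupr1 and Asns among 13 ATF4 response genes, Aars, Gars, Iars, Tars and Yars among 10 cytosolic synthetases, and 0 of 14 mitochondrial synthetases. Of all 32851 windows searched, 1304 (3.97%) held them. Of the 5 matches before a start, 1 of Aars is not shown, since its window lies inside the span given for Aars below. The other 4 are printed with the bases around them, 5′ to 3′ on the strand of the gene, with the match in capitals. Nupr1 lies on the minus strand at chr7:126625555-126625598, Asns on the minus strand at chr6:7693210-7693250, Gars on the plus strand at chr6:55037953-55037996 and Tars on the minus strand at chr15:11399659-11399691. In Nupr1, Gars and Tars the match is the reverse complement of the letters searched. The match begins 110 bases before the start in Nupr1, 23 in Asns, 30 in Gars and 15 in Tars. A match is a description of the letters, and its absence says nothing of the factor.
Nupr1: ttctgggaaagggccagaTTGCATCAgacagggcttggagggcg
Asns: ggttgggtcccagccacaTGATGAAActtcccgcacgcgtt
Gars: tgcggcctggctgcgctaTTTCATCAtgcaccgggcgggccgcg
Tars: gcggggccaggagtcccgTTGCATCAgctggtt

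Total counts were 30970019 to 43177842 per library, and levels below are CPM, counts scaled to a common library size with TMM factors. The labelled pro-B identity could be checked only in part. Of 15 markers 6 had values, Ptprc was at 288 to 470.5 CPM in the 6 libraries, and Cd79a reached at most 2.56 CPM. Summed, the pro-B markers were at 4603, 4733 and 1859 CPM in induced EF1, EF2 and EFPC libraries and at 1643 to 1725 CPM in controls. Of this, Csf2rb made up 3692, 3739.6 and 1306 CPM in the induced libraries and 886 to 947 CPM in controls. Of markers of other cells, 5 of 8 myeloid, 4 of 7 mast cell, 1 of 7 fibroblast and 0 of 7 T and NK cell genes had values. The summed mast cell markers were at 654, 677 and 1202 CPM in induced EF1, EF2 and EFPC libraries and at 998 to 1021 CPM in controls, nearly all of it Gata2. The summed myeloid markers were at 101, 117 and 17.4 CPM in the induced libraries and at 55.0 to 61.0 CPM in controls. The induced EFPC library stood apart. It had 28.3 CPM of the leukocyte gene Cd53, against 499 and 555 CPM in induced EF1 and EF2. Controls had 363 to 477 CPM of Cd53. Ptprc, also a leukocyte gene, went the other way. Its value in induced EFPC was the highest of the 6 libraries, at 470.5 CPM against 288 to 381 CPM in the others. Etv6, the mouse counterpart of one fusion partner, was at 259, 229.9 and 120.2 CPM in the induced libraries and at 81.3 to 94.6 CPM in controls. The part of these differences in the results below was not tested. In bulk RNA, less of a transcript in each cell and fewer cells that hold it cannot be told apart.

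Of the cytosolic synthetases 13 of 17, and of the ATF4 response genes 7 of 13, were higher in EF1 and EF2 and lower in EFPC. Another 5 ATF4 response genes, Ddit4, Psat1, Phgdh, Psph and Shmt2, were lower in all 3 pairs, as were 25.8% of all genes. In the EF1 and EF2 pairs, the stress regulators Atf5, Ddit3, Trib3 and Nupr1 and most cytosolic synthetases were higher with induction. In the EFPC pair every one of the 13 ATF4 response genes and of the 17 cytosolic synthetases was lower with induction. Of the mitochondrial synthetases 3 of 16 were higher in EF1 and EF2 and lower in EFPC, against 14.6% of all genes. Differences within a pair are log2 CPM of the induced library minus that of its control, with a prior count of 2. The median of the ATF4 response genes was 0.08 in EF1, 0.09 in EF2 and -0.93 in EFPC. For cytosolic synthetases it was 0.10, 0.13 and -0.57, and for mitochondrial synthetases -0.06, 0.07 and -0.09. Over all 13260 genes tested the medians were -0.04, -0.01 and -0.02.

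Counted by gene, 7, 8 and 0 of 13 ATF4 response genes were higher with induction in the EF1, EF2 and EFPC pairs. Of 17 cytosolic synthetases 14, 14 and 0 were higher, and of 16 mitochondrial synthetases 7, 9 and 5. Of all genes tested, 46.2%, 49.3% and 47.9% were higher in these pairs. The pattern higher in EF1 and EF2 and lower in EFPC was shown by 7 ATF4 response genes, 13 cytosolic and 3 mitochondrial synthetases, and by 14.6% of all genes.

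**Figure D1:**
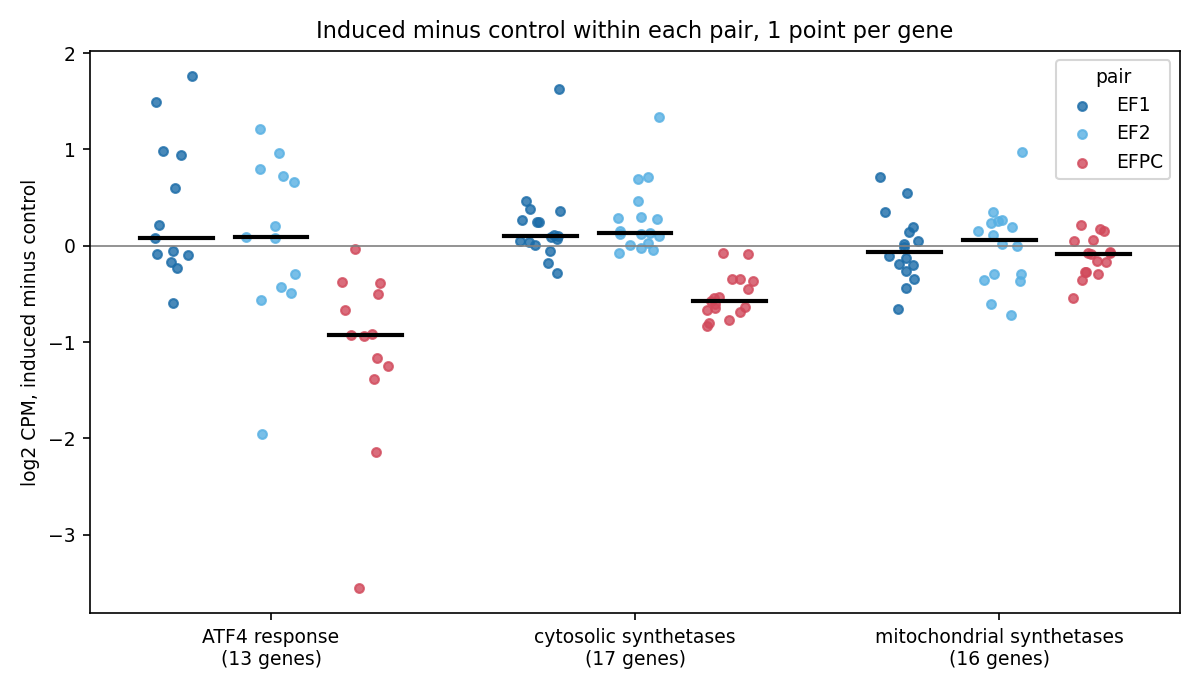
The difference in log2 CPM between the induced and the control library is plotted on the vertical axis for each member, with colours for the EF1, EF2 and EFPC pairs and a black bar at the median of each set. All 13 ATF4 response genes and all 17 cytosolic synthetases lie below 0 in the EFPC pair, while the mitochondrial synthetases lie around 0 in every pair.

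Across all 6 libraries, edgeR's quasi-likelihood test with Benjamini-Hochberg adjustment called 0 of the 46 members and 0 of the 13260 genes tested (0%). At an unadjusted p under 0.05 the same test held 2 members (Wars and Wars2), against 17.6% of all genes. DESeq2 called 0 members higher, against 4.25% of all genes, and 0 lower, against 2.65%. The authors' deposited table has an adjusted p under 0.05 for 906 genes and 0 of the members. With the replicate number as a block, edgeR again called 0 genes and DESeq2 called Ddit4 lower, against 4.73% of all genes called lower, and 0 members higher, against 6.40%. limma-voom called 0 members and 0 of all genes (0%). Fits without the EFPC pair rest on the EF1 and EF2 libraries of each group and leave out the pair in which most members were lower. Without the EFPC pair, edgeR called 7 members higher, against 9.81% of all genes, and 1 lower, against 6.37%. The higher ones were Ddit3, Trib3, Nupr1, Sesn2, Aars, Wars and Wars2, and the lower one was Ddit4. These are 15.2% of the members higher and 2.17% lower. The higher ones were 4 of 13 ATF4 response genes, 2 of 17 cytosolic and 1 of 16 mitochondrial synthetases.

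Among the regulators, Atf4 itself (chromosome 15, 80255184 to 80257545, GRCm38.p6) had 596, 618 and 180.1 CPM in the induced EF1, EF2 and EFPC libraries, against 563, 586 and 345 CPM in the controls. The induced EFPC library was lowest and the control EFPC library next, and the groups overlapped. The means were 465 ± 247 CPM in induced and 498 ± 133 CPM in control cells (SD, n = 3 each), and the log2 fold change by DESeq2 was -0.08, with a standard error of 0.446 (DESeq2 adjusted p = 0.95). Atf5, a related leucine zipper factor that ATF4 can induce, had 149, 216 and 17 CPM in induced libraries, against 75.3, 132 and 22.2 CPM in controls. Both EFPC libraries were far below the other four for Atf5. Without the EFPC pair, in a fit added after the data were seen, DESeq2 called Atf5 at 0.84 ± 0.26 (SE, DESeq2 adjusted p = 0.00961). There edgeR did not call it (edgeR adjusted p = 0.0865).

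Ddit3 encodes CHOP, the factor linked to cell death under lasting stress of the endoplasmic reticulum (chromosome 10, 127290793 to 127296291). It had 87.3, 83.6 and 4.28 CPM in induced libraries, against 25.8, 53.0 and 5.57 CPM in controls. Its level was 3.38 times the control in EF1 and 1.58 times in EF2, but 0.77 times in EFPC. With EF1 and EF2 alone its log2 fold change was 1.12 (edgeR adjusted p = 0.0414). The annotated ends of Ddit3 and of the synthetase gene Mars overlap, and since strand use in counting is not stated in the labels, reads there are uncertain.

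Trib3, a pseudokinase that dampens ATF4 and is itself induced by it (chromosome 2, 152337425 to 152344060), had 309, 344 and 10.1 CPM in induced libraries, against 162, 198 and 44.9 CPM in controls. The induced EF1 and EF2 libraries were highest and the induced EFPC library was lowest. The fold was 1.91 in EF1 and 1.74 in EF2, against 0.227 in EFPC. Without the EFPC pair the log2 fold change was 0.86 (edgeR adjusted p = 0.0172), while over all 6 libraries it was 0.71 (edgeR adjusted p = 0.759).

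Nupr1 is a small stress-induced chromatin protein whose promoter stretch is printed above (chromosome 7, 126623246 to 126625470). On the log2 scale it had the widest range of the members over libraries. It had 100.1, 94.1 and 0.924 CPM in induced libraries, against 35.6, 48.3 and 11.4 CPM in controls. The induced EFPC value rests on 41 reads, against 416 reads in its control. Nupr1 was 2.81 times the control in EF1 and 1.95 times in EF2, and 0.0852 times in EFPC. In the EF1 and EF2 pairs together it was higher by 1.21 on the log2 scale (edgeR adjusted p = 0.0061).

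**Figure D2:**
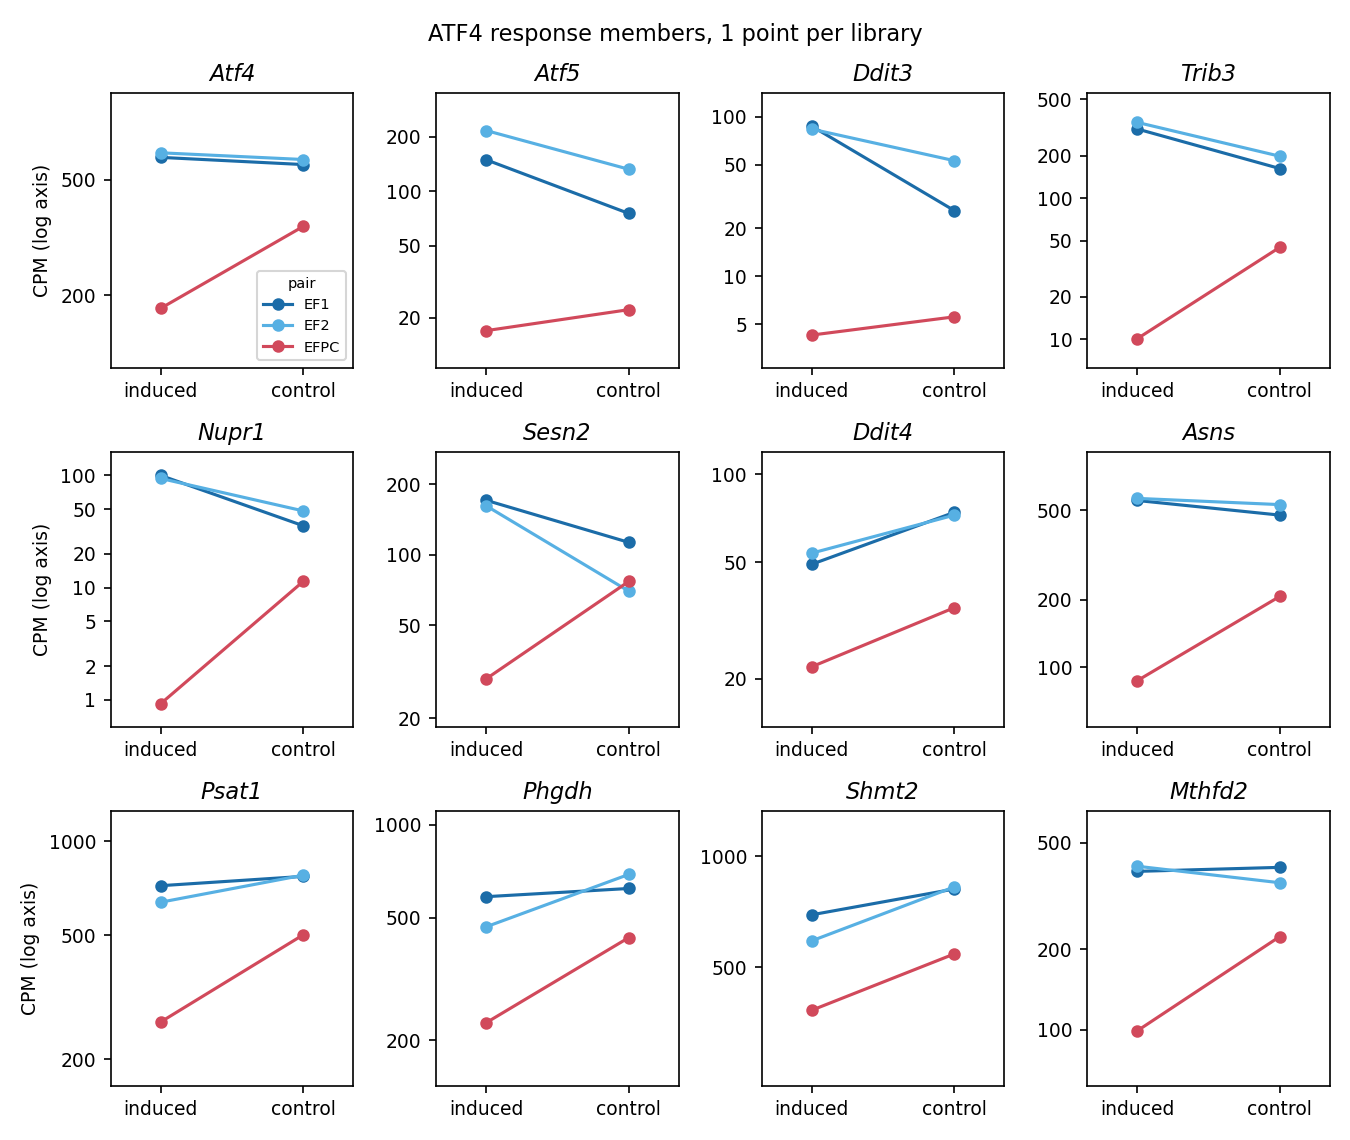
CPM on a log axis is plotted for 12 of the 13 ATF4 response genes, with the induced library on the left and its control on the right, joined by pair. For Trib3, Nupr1 and Sesn2 the EF1 and EF2 lines lie higher on the induced side and the EFPC line lies lower there, with Nupr1 at 0.924 CPM in the induced EFPC library.

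Both inhibitors of mTORC1 in the set were lower with induction in the EFPC pair, and in EF1 and EF2 Sesn2 was higher and Ddit4 lower. Sesn2, a leucine-binding protein that restrains mTORC1 (chromosome 4, 132492804 to 132510456), had 171, 162 and 29.5 CPM in induced libraries, against 113, 69.9 and 77.0 CPM in controls. Its log2 fold change without the EFPC pair was 0.87 (edgeR adjusted p = 0.035). Ddit4, or REDD1, which restrains mTORC1 through TSC2, had 49.2, 53.7 and 22.0 CPM in induced libraries, against 74.0, 72.4 and 35 CPM in controls. Ddit4 was lower with induction in all 3 pairs, at 0.666, 0.742 and 0.63 times the control. The call depended on the fit. With group alone the DESeq2 adjusted p was 0.516, and with the replicate block Ddit4 differed by -0.55 ± 0.161 (SE, DESeq2 adjusted p = 0.0125). Without the EFPC pair it was -0.50 (edgeR adjusted p = 0.0434).

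The enzymes of serine, asparagine and one-carbon supply did not share the higher values of the regulators. Their 6 genes had a median difference of -0.09 in EF1, -0.39 in EF2 and -0.93 in EFPC, while the 5 regulators had medians of 0.98, 0.72 and -0.94. None of the 6 enzymes passed edgeR or DESeq2 over all 6 libraries, with the replicate block or without the EFPC pair. Asns, asparagine synthetase, had 553, 565 and 87.2 CPM in induced libraries, against 476, 530.1 and 207 CPM in controls. For EF1 and EF2 this was a difference of 0.22 and 0.09, and for EFPC one of -1.25. Asns thus had the direction of the regulators in every pair. Its differences in EF1 and EF2 lay nearer to those of Atf4, at 0.08 in both, than to those of Atf5, Ddit3, Trib3 and Nupr1, at 0.66 to 1.76.

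Serine synthesis runs through Phgdh, Psat1 and Psph in that order, and all 3 genes were lower with induction in every pair. Phgdh, its first enzyme (chromosome 3, 98313171 to 98339969), had 585, 467 and 228 CPM in induced libraries, against 622, 691 and 431 CPM in controls. Psat1, the transaminase, had 719.7, 637 and 263 CPM in induced libraries, against 771, 778 and 501 CPM in controls. The groups overlapped for both genes. Psph, the phosphatase, was the least abundant member of the pathway, with 13.8, 5.05 and 5.79 CPM in induced libraries, against 15.5, 19.7 and 5.93 CPM in controls. Its mean difference came mainly from the EF2 pair, at -1.95.

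Shmt2 and Mthfd2, which pass one-carbon units from serine in mitochondria, had different patterns in the EF2 pair. Shmt2 had 693, 589 and 382 CPM in induced libraries, against 814, 825 and 543 CPM in controls. Mthfd2 had 390.3, 408 and 99.1 CPM in induced libraries, against 404, 354 and 223 CPM in controls. Shmt2 was lower with induction in all 3 pairs, whereas Mthfd2 differed by only -0.05 in EF1 and 0.21 in EF2 and by -1.17 in EFPC. In all, 11 members were lower in all 3 pairs and 3 were higher in all 3, against 25.8% and 21.2% of all genes.

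Of the cytosolic synthetases, Wars, the tryptophan enzyme (chromosome 12, 108860030 to 108894175), stood apart in EF1 and EF2. It is known as an interferon-inducible synthetase. Wars had 646, 523 and 148 CPM in induced libraries, against 209, 206 and 189 CPM in controls. The controls lay close together, and the induced EFPC library lay below them. The fold was 3.1 in EF1 and 2.53 in EF2, against 0.783 in EFPC. Over all 6 libraries its log2 fold change was 1.14 ± 0.459 (SE, DESeq2 adjusted p = 0.114), and without the EFPC pair it was 1.5 (edgeR adjusted p = 0.002).

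Aars, the alanine enzyme (chromosome 8, 111027778 to 111055569), was the other cytosolic synthetase called without the EFPC pair. It had 679.6, 676 and 241 CPM in induced libraries, against 490.4, 419 and 374 CPM in controls. Its log2 fold change in EF1 and EF2 together was 0.58 (edgeR adjusted p = 0.0471). DESeq2 without the EFPC pair also called Lars, the leucine enzyme, at 0.43 ± 0.17 (SE, DESeq2 adjusted p = 0.0498), against 13.2% of all genes called higher. The other 14 cytosolic synthetases passed neither tool in that fit.

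Gars, the glycine enzyme whose promoter stretch is printed above, had 619, 581 and 257 CPM in induced libraries, against 642, 536 and 446 CPM in controls. Tars, the threonine enzyme also printed above, had 355, 371 and 166 CPM in induced libraries, against 334, 300.3 and 260.1 CPM in controls. For both genes the induced EFPC library was lowest, and neither passed any test of induced against control given here. Dars and Hars, the aspartate and histidine enzymes, were the exceptions to the low induced EFPC values. Dars had 224, 221 and 232 CPM in induced libraries, against 253, 225 and 243 CPM in controls. Hars had 118, 106 and 114 CPM in induced libraries, against 143, 111 and 166 CPM in controls. Neither passed the test (DESeq2 adjusted p = 0.825 for Dars and 0.449 for Hars).

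Among the mitochondrial synthetases, Wars2, the tryptophan enzyme (chromosome 3, 99140107 to 99221230), was the 1 member with non-overlapping groups and induced libraries higher, as were 11.2% of all genes. The reverse, with every induced library below every control, was found for 0 members and 13.0% of all genes. It had 24.0, 25.9 and 15.5 CPM in induced libraries, against 14.6, 13.2 and 13.9 CPM in controls. The EFPC difference was small, at 0.15, while EF1 and EF2 differed by 0.71 and 0.97. Over all libraries DESeq2 gave 0.66 ± 0.252 (SE, DESeq2 adjusted p = 0.0903), and without the EFPC pair edgeR gave 0.85 (edgeR adjusted p = 0.0164). Among the members that are synthetases, those for tryptophan had the largest positive differences in the EF1 and EF2 pairs, and Eprs, outside the rule on symbols, had 0.66 and 1.03 there.

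Fars2 and Pars2, for phenylalanine and proline, were also higher in all 3 pairs, by 0.11 to 0.35, without passing a test. Aars2, Cars2, Iars2 and Yars2 were lower in all 3 pairs. Iars2, the isoleucine enzyme, had 94.8, 86.8 and 123 CPM in induced libraries, against 129, 106 and 149 CPM in controls. Aars2, the alanine enzyme, had 33.4, 31.1 and 41.5 CPM in induced libraries, against 42.3, 39.9 and 46.6 CPM in controls. Cars2, the cysteine enzyme, had 15.6, 11.4 and 24.7 CPM in induced libraries, against 24.6, 18.7 and 25.8 CPM in controls. The groups overlapped for all 3 of these genes. Cars2 was called lower by DESeq2 without the EFPC pair, at -0.67 ± 0.255 (SE, DESeq2 adjusted p = 0.0424), against 8.55% of all genes.

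For 13 amino acids both a cytosolic and a mitochondrial enzyme could be compared within the same library. In the EF1 and the EF2 pair the cytosolic gene's difference was above that of its mitochondrial partner for 11 of 13 amino acids each, with a median gap of 0.23 log2 units in EF1 and 0.30 in EF2. In the EFPC pair it was above for 0 of 13, with a median gap of -0.47. The largest gap was 1.06, for Lars over Lars2 in EF2. In the EFPC pair the gaps ran from -0.76, for Cars against Cars2, to -0.09, for Rars against Rars2. The 13 gaps of a pair come from the same 2 libraries and are not replicates.

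**Figure D3:**
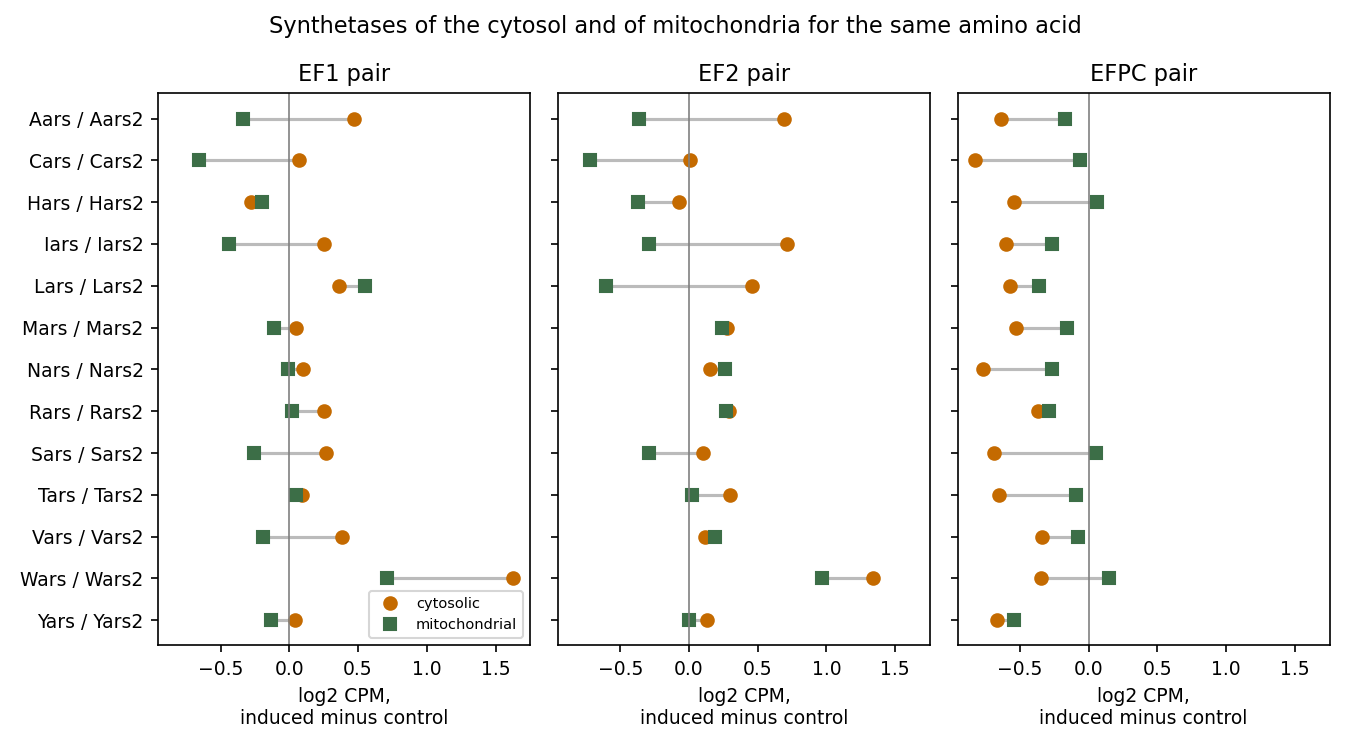
Each row pairs the cytosolic and the mitochondrial synthetase for 1 amino acid, and the horizontal axis gives the difference in log2 CPM between the induced and the control library for the EF1, EF2 and EFPC pairs. Cytosolic points lie to the right of their partners for 11 of 13 amino acids in EF1 and EF2 and for 0 of 13 in EFPC.

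Levels of different genes were compared on the authors' TPM scale, which corrects for length. The median cytosolic synthetase was at 189.6 TPM in induced and 169 TPM in control cells, with gene means from 97.3 to 413 TPM in induced and from 99.6 to 411 TPM in control cells. The median mitochondrial synthetase was at 19.3 TPM in induced and 20.1 TPM in control cells. Lars2 stood apart from the other mitochondrial genes, at 378 ± 128 TPM in induced and 386 ± 137 TPM in control cells (SD, n = 3 each). The ratio of cytosolic to mitochondrial TPM was widest for tryptophan in induced cells, at 34.8 in induced and 24.4 in control cells, and for asparagine in control cells, at 33.2 in induced and 35 in control cells. Leucine was the 1 amino acid with a ratio below 1, at 0.502 in induced and 0.397 in control cells.

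**Figure D4:**
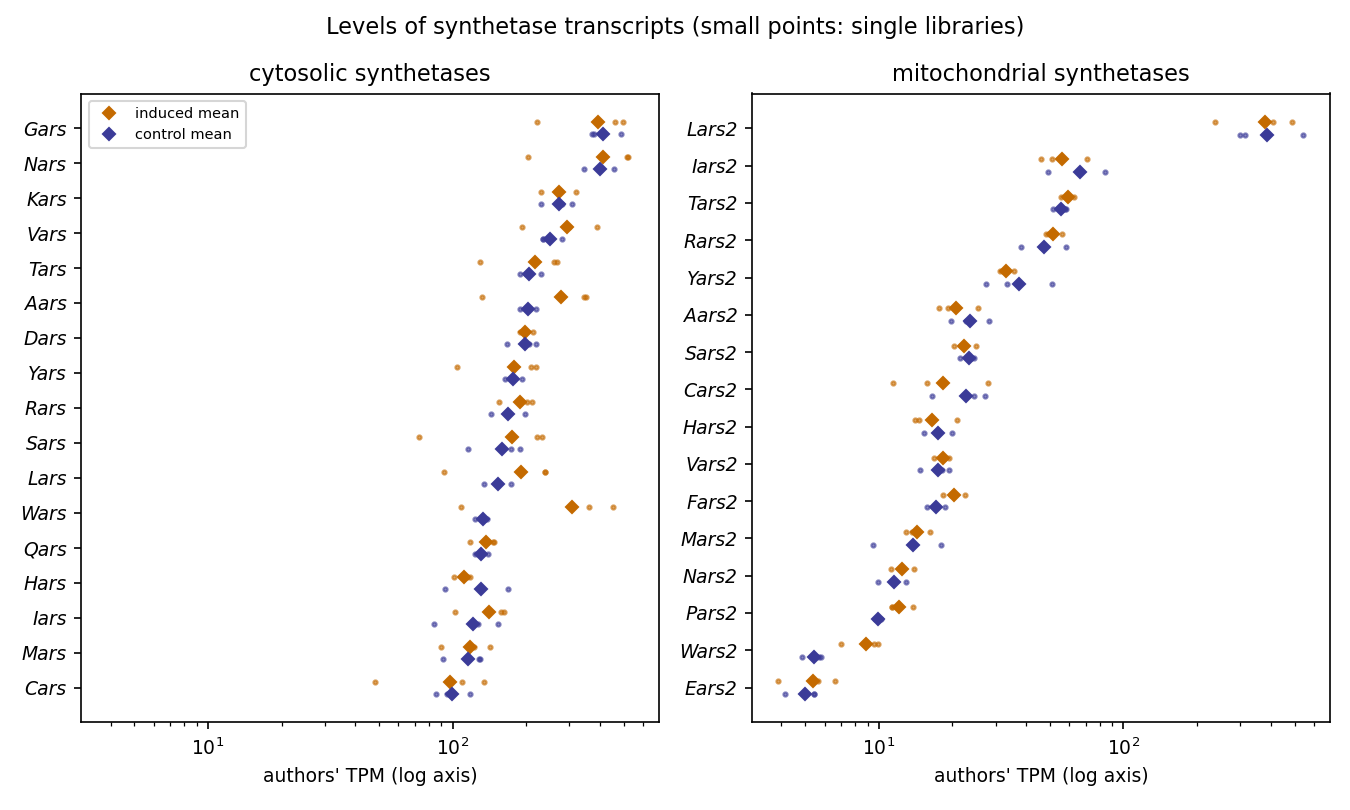
The authors' TPM is plotted on a log axis for each synthetase gene, with diamonds for the mean of the induced and of the control libraries and small points for single libraries. The induced means of the cytosolic genes lie between 97.3 and 413 TPM, and the means of all mitochondrial genes other than Lars2 lie below them.

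As shares of all counts, the 13 ATF4 response genes took 0.429%, 0.420% and 0.137% in the induced EF1, EF2 and EFPC libraries and 0.415%, 0.440% and 0.245% in the controls. The cytosolic synthetases took 0.674%, 0.647% and 0.328% with induction, against 0.579%, 0.537% and 0.462% in the controls. The mitochondrial synthetases took 0.146%, 0.134% and 0.1% with induction, against 0.123%, 0.181% and 0.117% in the controls. For the ATF4 response and the cytosolic synthetases the induced EFPC library was lowest and the control EFPC library next, so both were low before the pair difference is taken. The mitochondrial shares had the same order, but through Lars2. Without Lars2, an alternative chosen after the data were seen, they were 0.0489%, 0.0499% and 0.0536% with induction and 0.0552%, 0.0512% and 0.0582% in the controls, and EFPC was the highest of each group. The induced EFPC library minus the mean of the other induced libraries had a median of -2.01 log2 units over the ATF4 response genes, -1.13 over the cytosolic and -0.14 over the mitochondrial synthetases. Among the controls the same medians were -1.06, -0.28 and 0.02.

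By gene, the induced EFPC library was the lowest of all 6 for 12 of 13 ATF4 response genes (all but Psph), 15 of 17 cytosolic synthetases (all but Dars and Hars) and 5 of 16 mitochondrial synthetases. This held for 19.9% of all genes tested. The EFPC libraries of both groups took the lowest places for 11, 11 and 5 genes of these sets, against 16.3% of all genes.

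The difference between the EFPC pair and the other pairs was tested as an interaction in edgeR over all genes, a test chosen after the data were seen. EFPC has 1 library in each group, so its spread was assumed to be that of the EF1 and EF2 libraries. Of the 46 members 5 had a more negative effect in EFPC, against 1.56% of all genes, and 0 a more positive one, against 0.392%. Nupr1 had an interaction of -4.84 log2 units (edgeR adjusted p = 0.00317) and Trib3 one of -3.01 (edgeR adjusted p = 0.00621). For Sesn2 it was -2.25 (edgeR adjusted p = 0.0367), for Wars -1.85 (edgeR adjusted p = 0.0288) and for Asns -1.40 (edgeR adjusted p = 0.0483). These 5 comprise the stress-induced regulators Nupr1 and Trib3, an mTORC1 inhibitor, 1 synthetase and the enzyme of asparagine synthesis. DESeq2 called 11 members more negative in EFPC, against 4.04% of all genes, and 0 more positive, against 1.28%, adding Atf4, Mthfd2, Aars, Iars, Lars and Nars. Its value for Atf4 was -1.03 ± 0.289 (SE, DESeq2 adjusted p = 0.0113). Neither tool called a mitochondrial synthetase. Without the EF2 control library edgeR kept 2 members, Nupr1 and Trib3, and without the EF1 control library it kept Nupr1, Trib3 and Sesn2.

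Other genes, not all of them of the pathway, were read from lists chosen with earlier results of these data known. Over all 6 libraries edgeR called 0 of them. Upstream, the eIF2 alpha kinases and the phosphatase subunits that oppose them had 10 genes with values. DESeq2 called 2 of the 10 higher, Eif2ak2 and Ppp1r15b, against 4.25% of all genes, and 0 lower, against 2.65%. Eif2ak2, the double-stranded RNA-activated kinase PKR and itself an interferon-induced gene, had 419, 277 and 128 CPM in induced libraries, against 63.7, 47.6 and 94.8 CPM in controls. Each induced library lay above every control, and the log2 fold change was 2.02 ± 0.435 (SE, DESeq2 adjusted p = 0.000361, edgeR adjusted p = 0.153). Ppp1r15b, the constitutive phosphatase subunit CReP, had 299.7, 297 and 315 CPM in induced libraries, against 227, 194 and 240.1 CPM in controls (DESeq2 adjusted p = 0.0442).

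Ppp1r15a, or GADD34, the stress-induced phosphatase subunit, had 178, 198 and 33.5 CPM in induced libraries, against 59.9, 83.2 and 31.3 CPM in controls. It was called with the replicate block, at 1.0 ± 0.308 (SE, DESeq2 adjusted p = 0.0181), and not with group alone (DESeq2 adjusted p = 0.195). Unlike the regulators above, Eif2ak2, Ppp1r15a and Ppp1r15b were not lower with induction in the EFPC pair, where their differences were 0.44, 0.10 and 0.39. For the Eif2ak2 effect the EFPC pair was nevertheless more negative than the others, by -2.21 (edgeR adjusted p = 0.0434). The other kinases, Eif2ak1, Eif2ak3 and Eif2ak4, passed neither tool over all 6 libraries.

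Of the leucine zipper partners, 0 of 5 passed over all libraries by either tool. There edgeR called 0% of all genes, and DESeq2 called 4.25% higher and 2.65% lower. Without the EFPC pair edgeR called Nfe2l1 and Nfe2l2 higher (edgeR adjusted p = 0.0114 and 0.0166), against 9.81% of all genes. All 10 amino acid transporters were higher with induction in EF1, 9 in EF2 and 1 in EFPC, against 46.2%, 49.3% and 47.9% of all genes. Without the EFPC pair edgeR called 4 of the 10 higher, against 9.81% of all genes. These were Slc7a1, Slc7a5, Slc7a11 and Slc6a9, which import cationic and large neutral amino acids, cystine and glycine. Slc7a5 had 799, 868 and 286 CPM in induced libraries, against 574, 508 and 433 CPM in controls. Its differences in the pairs were 0.48, 0.77 and -0.60, close to the 0.47, 0.69 and -0.64 of Aars.

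Further enzymes of amino acid and one-carbon metabolism gave 0 calls among 9 genes over all libraries with group alone. Of all genes edgeR called 0% there, and DESeq2 4.25% higher and 2.65% lower. With the replicate block DESeq2 called Pck2 lower, at -0.60 ± 0.211 (SE, DESeq2 adjusted p = 0.0417), against 4.73% of all genes. All 9 were lower with induction in the EFPC pair, where 47.9% of all genes were higher. Of 9 further listed genes DESeq2 called Atf6 and Cdsn higher, with Cdsn at only 0.33 to 1.06 CPM in controls. Of 12 genes of the unfolded protein response of the endoplasmic reticulum it called Ern1 higher. Of all genes 4.25% were called higher in that fit. Ern1, the sensor IRE1 alpha, had 119, 152 and 65.9 CPM in induced libraries, against 36.9, 22.0 and 41.0 CPM in controls, and was higher in every pair (DESeq2 adjusted p = 0.000164). Hspa5, the chaperone BiP that reports on this response, had 719, 735 and 614 CPM in induced libraries, against 452, 495 and 683 CPM in controls. It was not called over all 6 libraries (DESeq2 adjusted p = 0.38), and without the EFPC pair its log2 fold change was 0.62 (edgeR adjusted p = 0.0369).

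The synthetases and partners whose symbols fall outside the rule gave 0 calls of 11 over all libraries by either tool. The shares of all genes were 0% by edgeR and 4.25% higher and 2.65% lower by DESeq2. Eprs, which joins the glutamate and proline enzymes in 1 protein, had 877, 1024 and 370.3 CPM in induced libraries, against 556, 501 and 493 CPM in controls. It followed the pattern of the cytosolic members, and without the EFPC pair its log2 fold change was 0.85 (edgeR adjusted p = 0.0163).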

How the data were processed

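Raw read counts of each gene, as deposited, were whole numbers, and TPM values were computed by the authors. The submitters' processing notes name HISAT2, DESeq2 and mm10, with no versions. For the counting program, annotation and strand setting, the choice is not stated in the labels. Signed fold changes with the standard error of the log2 value (read as scores) and p-values come from the authors' deposited comparison. A DESeq2 fit with group alone matched its log2 fold changes within 0.001 for all 14238 genes.

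The tests used edgeR 4.0.16 under R 4.3.3 (quasi-likelihood test, TMM, filterByExpr, 13260 genes), DESeq2 1.42.0 and limma 3.58.1. Benjamini-Hochberg adjustment ran over all genes tested, with a threshold of 0.05, and the scripts were tested on simulated counts. Within-pair differences used a prior count of 2. Positions come from RefSeq on GRCm38.p6. With 3 libraries against 3, an exact permutation test of 1 value cannot go below 0.1, so none is given.

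The members and lists were chosen with earlier results of these data known. Of the symbols that meet the rule, 1 is not reported here. Genes were given by library if they were Atf4, Atf5, Ddit3, Trib3 or Asns or among the 4 smallest p-values of their role, and others after their values were seen. The groups share replicate numbers. Deviations from the group means correlated at 0.17, 0.34 and 0.35 between libraries of the same number, and at 0.15 or less otherwise. Induced EF1 was at 0.17 with its own control and 0.10 with the EF2 control, and induced EF2 at 0.15 with the EF1 control. The numbers were taken to pair the libraries, though these values set EF1 apart from EF2 only weakly. The alternatives were other tools, scalings, filters, the replicate block and leaving out libraries. The DESeq2 fits with a pair or a library left out were added after the data were seen. The normalized log values and FPKM were not used.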

Additional observations from a re-analysis of the deposited data

Results flagged for a closer look

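For 5 members an edgeR interaction, adjusted over all genes and chosen after the data were seen, called a difference in the effect of induction between the EFPC pair and the EF1 and EF2 pairs. The differences in log2 units were -4.84 for Nupr1, -3.01 for Trib3, -2.25 for Sesn2, -1.85 for Wars and -1.40 for Asns. The EFPC pair has 1 library per group, so its spread was assumed to be that of the other libraries, and without the EF2 control library 2 of the 5 calls were left, Nupr1 and Trib3. The induced EFPC library also had the lowest Cd53 value of all libraries, at 28.3 CPM. Its value of Ptprc, another leukocyte gene, was the highest, at 470.5 CPM against 288 to 381 CPM in the other libraries. The part of that library's makeup in these differences was not tested.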

How the results depend on the processing

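The number of ATF4 response genes called was 0 in the main test and 1 by DESeq2 with the replicate block, and when libraries or pairs were left out it ranged from 0 to 5 by edgeR and from 0 to 6 by DESeq2. For cytosolic synthetases it was 0 and ranged from 0 to 2 by edgeR and from 0 to 3 by DESeq2. For mitochondrial synthetases it was 0 and ranged from 0 to 1 by edgeR and from 0 to 2 by DESeq2. The highest values came without the EFPC pair, where edgeR called 16.2% of all genes and DESeq2 13.2% higher and 8.55% lower, and for the mitochondrial genes also without the induced EFPC library alone. The replicate block changed no other call among the members. The median log2 fold change of mitochondrial synthetases ranged from -0.10 to 0.05 with libraries left out. The interaction called 5 cytosolic synthetases by DESeq2, and with libraries left out 2 to 5 ATF4 response genes and 0 to 1 cytosolic ones. The log2 fold change of Trib3 turned to -0.11 with limma-voom and to -0.05 and -0.04 with the replicate block in edgeR and DESeq2, and that of Nupr1 to -0.53 with limma-voom and to -0.06 with the block in DESeq2. Asns was at 0.01 with DESeq2, with RLE scaling and with no filter. With libraries left out, Asns ranged from -0.33 to 0.48, Atf4 from -0.34 to 0.30, Psat1 from -0.60 to 0.01 and Jdp2 from -0.63 to 0.10. None of these values passed the test, and the cause was not tested. In the induced EFPC library Nupr1 rests on 41 reads and Psph on 257, and that library had the largest total count, at 43177842.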
